A study of Mus musculus with 2 samples.

Results

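The genes described here are myoglobin (Mb) and 7 enzymes of heme synthesis (Alas1, Alad, Uros, Urod, Cpox, Ppox and Fech), taken by name, through GENCODE M21 symbols, from gene tables of heart tissue. All 8 were found, 8 of 43346 gene identifiers in the tables. The tissue was heart of the inbred strain C57BL/6J, from adults aged 8 weeks, with no treatment or genetic change named. Poly(A)-selected RNA longer than 200 nucleotides was sequenced as strand-specific paired reads of 76 nucleotides. The study has 1 group of 2 libraries, labelled biological replicates 1 and 2, so there is no contrast between conditions. The results are levels, the order of the genes, their transcripts, and differences between the 2 libraries.

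The estimated fragments numbered 57464573 in replicate 1 and 62912053 in replicate 2, and 98.3% of them were assigned to genes in both. Both libraries are labelled as pooled male and female tissue and share 1 donor record. Their sex-linked transcripts went against that label: Xist, transcribed from the silenced X chromosome of females, had 13725 and 13 counts, and 4 Y-linked genes together had 0 and 2916. By these counts replicate 1 read as female and replicate 2 as male, so a difference between the libraries cannot be told apart from one of sex. Nothing in the labels says how many animals stand behind a library, and the spread between the 2 may also be partly technical. Mitochondrial transcripts took 46.5% of TPM in replicate 1 and 30.6% in replicate 2. TPM is a level per transcript length, scaled to the same total in each library. All 8 cardiomyocyte markers (Myh6, Actc1, Tnnt2, Tnni3, Myl2, Ryr2, Pln and Ttn) were at 1 TPM or more in both libraries and summed to 28575 and 33183 TPM. The higher sum in replicate 2 came mainly from Tnni3 (4631 and 11030 TPM). By TPM Tnnt2 and Myl2 were also higher in replicate 2, whereas Myh6, Actc1, Ryr2, Pln and Ttn were lower. The 4 airway markers, led by the club cell secretoglobin Scgb1a1, summed to 0.320 and 2152 TPM.

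Myoglobin is a small heme protein of the cytoplasm of heart and oxidative skeletal muscle fibres that binds oxygen and lets it diffuse through the cell. Heme is made in a chain of enzymes that begins in the mitochondrial matrix with the joining of glycine and succinyl-CoA, passes through the cytosol, and ends in the mitochondrion with the insertion of ferrous iron into protoporphyrin. The first enzyme, aminolevulinate synthase, limits the rate outside red cells, where it is encoded by Alas1; red cell precursors use Alas2, on the X chromosome. In heart muscle heme is needed for myoglobin and for the cytochromes of the respiratory chain.

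Myoglobin stood far above the enzymes in both libraries. Mb (ENSMUSG00000018893.10, GRCm38 chromosome 15, positions 77015487 to 77050670, minus strand) measured 7269 TPM in replicate 1 and 8256 TPM in replicate 2, a mean of 7763 ± 698 (SD, n = 2). The deposited interval around a posterior estimate of the level, whose confidence level the sources do not state, ran from 7202 to 7253 in replicate 1 and from 8189 to 8240 in replicate 2. In both libraries the TPM estimate itself lies just above its interval. Mb was supported by 395436 and 473641 estimated fragments. It made up 0.727% and 0.826% of all TPM, and 2.15% and 1.63% of the TPM of nuclear protein-coding genes. Among 21461 nuclear protein-coding genes it ranked 2 in replicate 1 and 6 in replicate 2. Only Actc1, the cardiac alpha actin, lay above it in both libraries, with 14525 and 13049 TPM.

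The 5 nuclear protein-coding genes closest to Mb in level, by the sum over the 2 libraries of the absolute difference in log2(TPM + 1), were Tnni3 (1.07), Myl3 (1.47), Actc1 (1.66), Myl2 (1.91) and Atp5b (2.08). Tnni3, the inhibitory subunit of cardiac troponin, measured 4631 TPM in replicate 1 and 11030 TPM in replicate 2. It lay below Mb in one library and above it in the other. Myl3 and Myl2, the ventricular myosin light chains, measured 4370 and 4971 TPM and 3900 and 4103 TPM. Atp5b, the beta subunit of mitochondrial ATP synthase, measured 3299 and 4299 TPM. With 2 libraries this likeness is one of level, with no test.

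The sequence before the main start of Mb is shown because it precedes the transcript that carried most of the gene. It covers the 250 bases upstream of the first base of transcript Mb-203, at chr15:77022788-77023037 on the minus strand (RefSeq, GRCm38.p6). Capitals mark matches to the E box CANNTG, a motif read by basic helix-loop-helix factors, and to the CCAC box CCCACCCC, a motif described in muscle gene promoters.
Mb promoter: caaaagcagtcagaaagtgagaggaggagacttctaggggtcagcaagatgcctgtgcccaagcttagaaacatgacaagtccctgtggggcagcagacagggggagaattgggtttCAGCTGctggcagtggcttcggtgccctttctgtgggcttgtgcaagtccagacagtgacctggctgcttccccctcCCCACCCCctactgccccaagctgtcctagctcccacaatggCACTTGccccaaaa
The CCAC box lies at positions -56 to -49 from the start, and the E boxes at -133 to -128 and -14 to -9. Searched on both strands, the CCAC box letters occur in 8.52% of 32851 RefSeq promoter windows of the same length and the E box letters in 66.2%, so an E box match is common. Neither match shows that a factor binds there.

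Mb had 3 annotated transcripts, which all carry the same coding sequence of 462 nucleotides. Mb-203 held 78.7% of the gene's TPM in replicate 1 and 74.2% in replicate 2 (76.4 ± 3.17%, SD, n = 2). Mb-201 held 21.3% and 25.8%. The pair differs only outside the coding sequence: Mb-203 starts 60 bases further upstream and keeps as exon 80 bases that Mb-201 removes as its first intron. These make up the 140 bases by which the deposited lengths differ, whereas the M21 models drawn in the exon map also end Mb-201 earlier at the 3′ end. Per length, Mb-203 was 3.69 times as abundant as Mb-201 in replicate 1 and 2.87 times in replicate 2. Because the 2 transcripts overlap over most of their length, their split rests on the reads that cover these bases and on the authors' model.

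The third transcript, Mb-202, begins at a distal start 27.9 kb upstream, in a coding exon of Apol6, a gene of the apolipoprotein L family on the opposite strand. It held 0.02% of the gene in each library, from 68.8 and 97.2 estimated fragments. The proximal starts thus carried 99.98% of myoglobin TPM in both libraries. Apol6 itself had 139 counts in replicate 1 and 436 in replicate 2. The sources used here do not say whether counting used strand, and without it Mb-202 fragments and Apol6 fragments over this exon cannot be told apart.

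**Figure D1:**
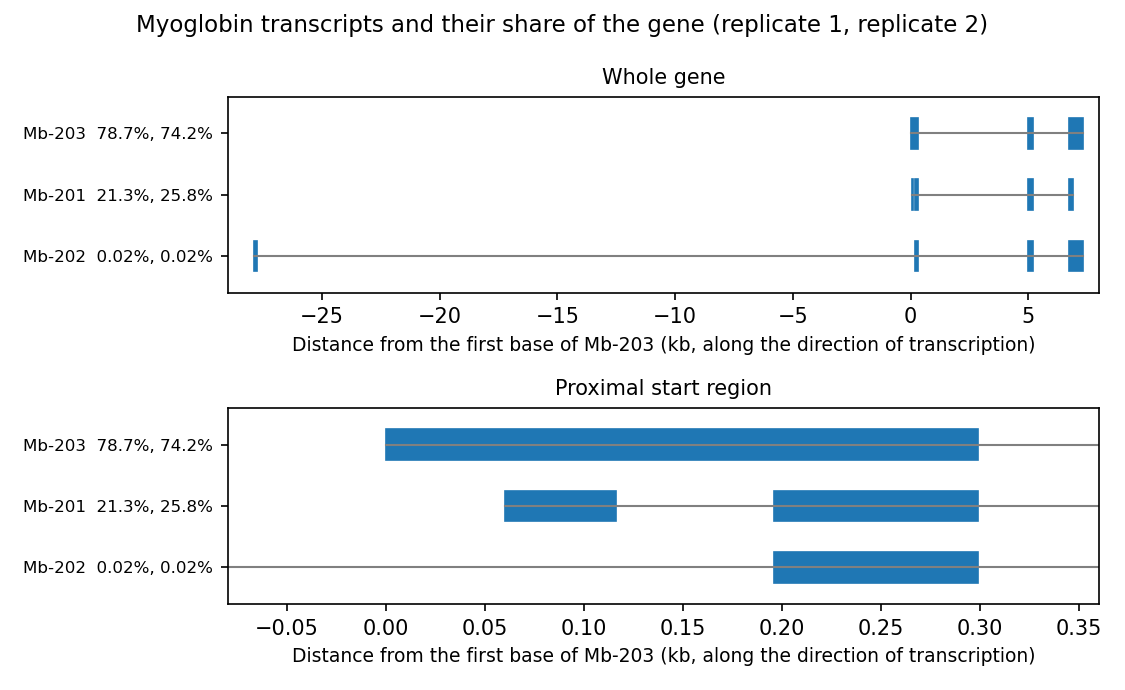
Exons (blocks) and introns (lines) of the 3 annotated myoglobin transcripts by distance in kilobases from the first base of Mb-203, for the whole gene above and the proximal start region below, with each transcript's share of the gene's TPM in replicates 1 and 2. Mb-203 keeps the 80 bases that Mb-201 splices out, and the distal start of Mb-202, 27.9 kb upstream, held 0.02% in each library.

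The enzymes spanned a wide range, from 108 ± 17.4 TPM for Alas1 to 6.51 ± 0.177 TPM for Cpox (mean ± SD, n = 2). They are given in the order of the pathway. Alas1 (ENSMUSG00000032786.10, chromosome 9, 106233455 to 106248654, minus strand), the housekeeping aminolevulinate synthase, measured 96.2 TPM in replicate 1 and 121 TPM in replicate 2, from 11270 and 15200 fragments. It was the highest of the 7 in each library and made up 38.2% and 38.6% of their summed TPM. Alad (ENSMUSG00000028393.6, chromosome 4, 62509169 to 62519918, minus strand) encodes the cytosolic enzyme that joins a pair of aminolevulinate molecules into porphobilinogen. It measured 43.0 and 66.8 TPM, a mean of 54.9 ± 16.9, from 2732 and 4478 fragments. Replicate 2 was the higher library for both genes.

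Uros (ENSMUSG00000030979.8, chromosome 7, 133686243 to 133710072, minus strand), uroporphyrinogen III synthase, closes the porphyrin ring. It measured 12.7 and 11.8 TPM, a mean of 12.3 ± 0.629, and was the only one of the 8 with a lower TPM in replicate 2. Urod (ENSMUSG00000028684.10, chromosome 4, 116989965 to 116994413, minus strand), uroporphyrinogen decarboxylase, measured 40.6 and 40.8 TPM, a mean of 40.7 ± 0.099. These are the steps in the cytosol, and Uros lay well below its neighbours Alad and Urod in both libraries.

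Cpox (ENSMUSG00000022742.5, chromosome 16, 58670292 to 58717636, plus strand), coproporphyrinogen oxidase of the space between the mitochondrial membranes, had the lowest level, 6.39 and 6.64 TPM. This still placed it above 73.1% and 72.0% of nuclear protein-coding genes. Ppox (ENSMUSG00000062729.7, chromosome 1, 171275990 to 171281186, minus strand), protoporphyrinogen oxidase of the inner membrane, measured 11.6 and 16.9 TPM, a mean of 14.3 ± 3.76. Fech (ENSMUSG00000024588.8, chromosome 18, 64452914 to 64490251, minus strand), ferrochelatase, which inserts the iron, measured 41.3 and 49.0 TPM, a mean of 45.1 ± 5.46. Beside these, the median of the nuclear protein-coding genes at 1 TPM or more was 6.98 TPM in replicate 1 and 7.45 in replicate 2.

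**Figure D2:**
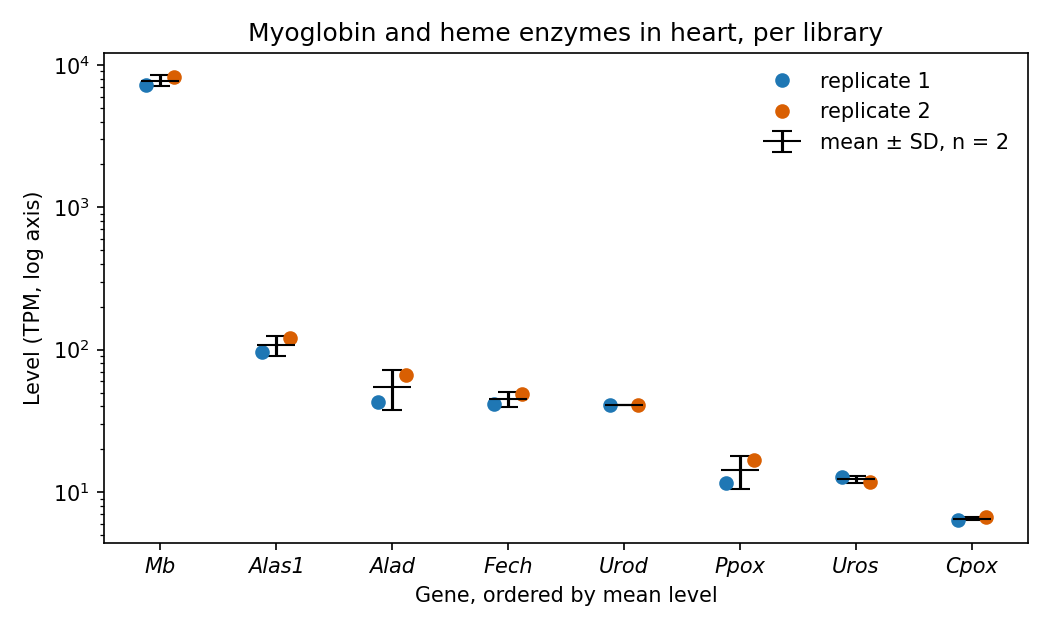
Level in TPM (log axis) of the 8 genes in each library, with the mean and SD of the 2 libraries as black marks and bars. Mb lies at 7269 and 8256 TPM, Alas1 at 96.2 and 121, a group of Alad, Fech and Urod between 40.6 and 66.8, and Ppox, Uros and Cpox between 6.39 and 16.9.

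By mean TPM the order was Mb, Alas1, Alad, Fech, Urod, Ppox, Uros and Cpox. Of the 7 neighbouring pairs in this order, 4 differed beyond the spread of their log2 ratio over the libraries. Mb exceeded Alas1 by 6.17 ± 0.10 on the log2 scale (75.6-fold and 68.4-fold), and Alas1 exceeded Alad by 1.01 ± 0.22. Urod exceeded Ppox by 1.54 ± 0.38 and Uros exceeded Cpox by 0.91 ± 0.11. Alad over Fech (0.25 ± 0.28), Fech over Urod (0.14 ± 0.17) and Ppox over Uros (0.19 ± 0.46) did not, and Ppox and Uros changed places between the libraries. An exact two-sided sign test over 2 libraries cannot go below p = 0.5, so no p is given for an order. The order is one of levels per length: by fragments, Fech had more than Alad, and Uros and Cpox were nearly level.

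Set against the whole group, Mb exceeded the 7 enzymes added together, which summed to 252 TPM in replicate 1 and 313 TPM in replicate 2. The ratio was 28.9 in replicate 1 and 26.4 in replicate 2, a log2 ratio of 4.79 ± 0.09 (SD, n = 2). It was the same in direction and size in each library, and by fragments rather than per length the log2 ratio was 3.79. The range within the enzymes was narrower, with Alas1 over Cpox at 15.0 and 18.2.

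In the Alas1 gene 1 further short sequence is shown, because nuclear respiratory factor 1 (NRF1), a regulator of genes for mitochondrial proteins, is known to act on this gene. Its core letters CGCATGCG were found once in the 12 RefSeq promoter windows of 7 members, at chr9:106247906-106247935 on the minus strand (capitals mark the match).
Alas1 site: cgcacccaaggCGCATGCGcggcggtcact
The match lies 61 to 68 bases before the first base of Alas1-201, within the first exon of the longer transcript Alas1-207. The same letters occur in 1.55% of all windows, searched on both strands. Of the other motifs searched in the windows of these genes, TATAAA and the GATA motif AGATAA were found in 0 windows, against 12.4% and 9.99% of all windows. CCAAT was found in 7 windows of 4 genes, 4 times in that of Ppox, against 33.8% of all windows. These 7 windows are not separate: the proximal Mb windows overlap and share the same CCAAT match, as do those of Alad. The count of windows therefore shows no excess over the share of all windows. The E box was found in windows of 5 genes, the CCAC box in those of Mb alone, and the MEF2 motif in 1 window of Alas1, against 2.92% of all windows. A match is a string of letters, not a measured site.

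The gene-level values of the enzymes hold different mixtures of transcripts. Of the 8 genes, 6 had more than 1 annotated transcript, and each of these was led by the same transcript in both libraries. Alad was nearly a single transcript, with 96.8% and 96.3% in Alad-201. For Alas1 the leading transcript, Alas1-201, held 56.0% and 64.1% (60.1 ± 5.70%, SD, n = 2). Alas1-206, annotated without a coding sequence, held 21.6% and 10.8%, and the longer coding Alas1-207 held 13.7% and 15.8%. The retained-intron model Alas1-203 held 1.93% and 5.85%.

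Uros-203 held 46.1% and 57.5% of its gene (51.8 ± 8.07%), and the retained-intron model Uros-206 held 19.8% and 25%. Among its other coding transcripts Uros-201 held 15.2% and 14.6% and Uros-202 held 5.31% and 2.94%. Uros-204 held 13.6% in replicate 1 and was listed at 0 in replicate 2; it has the same coding sequence as Uros-203. Urod-201 held 72.3% and 88.3% (80.3 ± 11.3%), and the short retained-intron model Urod-203 held 18.1% and 1.00%, from 141 and 8.38 estimated fragments. By fragments Urod-201 held 89.8% and 95.5%, and all retained-intron models of Urod together held 9.72% and 4.14%, against 25.9% and 9.89% of TPM. Urod therefore had the same gene TPM in both libraries but a coding part of 30.1 TPM in replicate 1 and 36.7 TPM in replicate 2.

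Ppox was the only one of the 8 with most of its TPM placed on models with a retained intron. These models held 67.0% in replicate 1 and 57.0% in replicate 2 (62.0 ± 7.10%, SD, n = 2), and by fragments 66.6% and 60.2%. The coding transcript Ppox-201 held 31.9% and 41.5%. The retained-intron models were led by Ppox-202 (19.4% and 19.9%), Ppox-205 (19.6% and 10%), Ppox-206 (16.2% and 12.7%) and Ppox-207 (8.49% and 12.2%). As a description of the rest of the tables, 3141 protein-coding genes had a retained-intron model and a mean of at least 5 TPM, and the median share of such models was 7.09%. A higher share than that of Ppox was found in 3.88% of these genes. For Uros the same figure was 25.7%, for Urod 30.7% and for Alas1 52.8%. The coding transcripts of Ppox came to 3.75 and 7.19 TPM, against a gene level of 11.6 and 16.9.

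The 3′ end of Ppox overlaps B4galt3, a galactosyltransferase gene on the opposite strand with 1189 and 2169 counts. The annotated 5′ end of Uros overlaps Bccip (794 and 756 counts) on the opposite strand, and the 3′ end of Cpox overlaps Gpr15 (0 and 1 counts). In the M21 models only Ppox-207 reaches into B4galt3, and only Uros-208, listed at 0 in both libraries, reaches into Bccip. Reads of overlapping genes cannot be told apart unless counting used strand, which is not stated. The level and transcript shares of Ppox are uncertain to that extent, and those of Uros only through Uros-208. Whether retained introns reflect unspliced RNA was not tested.

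**Figure D3:**
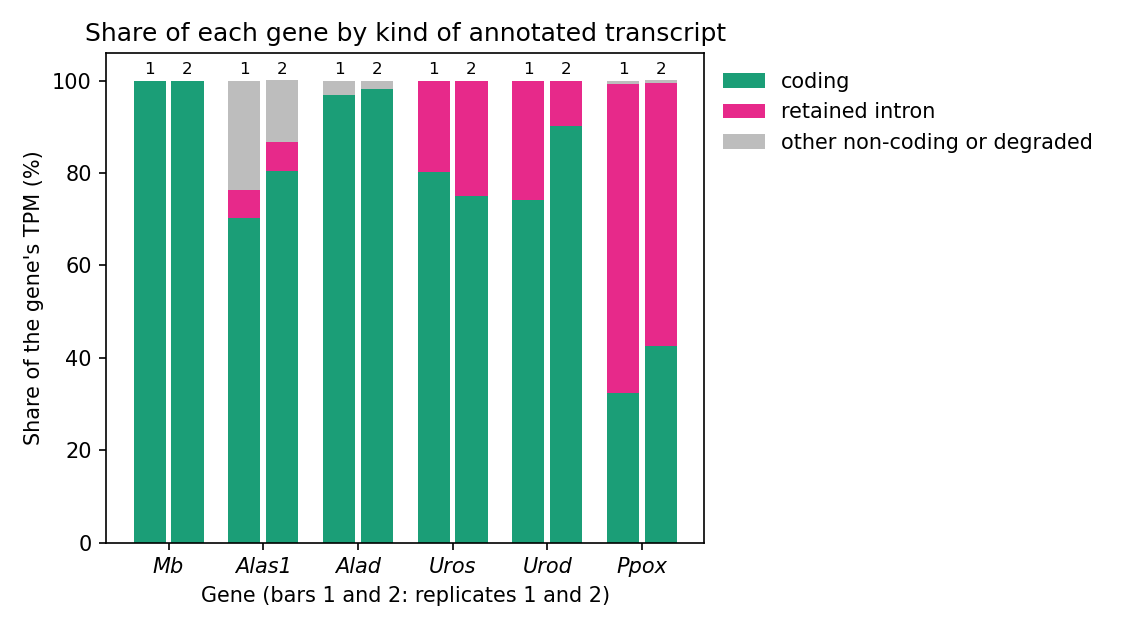
Share in percent of each gene's TPM by kind of annotated transcript, for the 6 genes with more than 1 transcript, with bars marked 1 and 2 for the replicates. Mb is wholly coding and Alad nearly so, whereas retained-intron models make up 67.0% and 57.0% of Ppox.

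Between the 2 libraries none of the 8 genes passed the call rule used here. A gene was called different when a two-sided exact binomial test on its fragments, with library sizes scaled by TMM (trimmed mean of M values), had a Benjamini-Hochberg adjusted p under 0.05 over all genes tested and the ratio was at least 2-fold. This compares 2 libraries and has no replicate check, and a difference cannot be told apart from one of sex. The count was 0 of 8, against 1901 of 16145 genes tested (11.8%), a background at which so few genes cannot be set apart by a count of 0. Their ratios of scaled CPM, counts per unit of library size, replicate 2 over replicate 1, ran from 0.858 for Uros to 1.42 for Ppox. The median absolute log2 ratio was 0.15 over the 8 and 0.32 over all genes tested, and the median log2 ratio was 0.05 against -0.01. In bulk tissue, fewer cells of a type and less RNA per cell cannot be told apart.

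Mb measured 7310 CPM in replicate 1 and 7332 CPM in replicate 2 on this scale, a ratio of 1.00 (95% interval 0.999 to 1.01, counting error only; adjusted p = 0.216, exact binomial test). Urod, at 48.5 and 49.6 CPM, also lay near 1 (1.02, 0.971 to 1.08; exact adjusted p = 0.470).

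Without the fold limit, 5 of the 8 passed the exact test. Higher in replicate 2 were 4: Ppox (20.9 and 29.6 CPM, 1.42-fold, 1.32 to 1.53), Alad (50.5 and 69.3 CPM, 1.37-fold, 1.31 to 1.44), Alas1 (208 and 235 CPM, 1.13-fold, 1.10 to 1.16) and Fech (128 and 135 CPM, 1.05-fold, 1.02 to 1.08). Their adjusted p-values in the exact test were 1.76e-20, 1.22e-38, 6.24e-22 and 0.00452. Uros was higher in replicate 1 (22.1 and 19 CPM, 1.17-fold, exact adjusted p = 3.70e-04). Cpox, at 22 and 20.2 CPM, did not pass (exact adjusted p = 0.0544). At this depth counting error is so small that 32.9% of all genes tested passed as higher in replicate 2 and 34.9% as higher in replicate 1. The 5 of 8 stand beside 67.8% of all genes tested in either direction. An edgeR common dispersion was estimated from these same 2 libraries as 1 group, so it counts the differences between them as noise. With it the adjusted p of each of the 8 in edgeR's exact test was 1.00, and the 5 passes were lost. For that reason this loss cannot decide whether the 5 differ.

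The direction depended on the scale. By TPM 7 of the 8 were higher in replicate 2, by scaled CPM 6. When TPM was taken only over nuclear protein-coding genes, whose part of the total was 33.8% and 50.7%, only Alad was higher in replicate 2 (127 and 132), and Mb measured 21534 and 16280. With the 4 red cell globins also left out of the total, a scale added after the data were seen, 3 of the 8 were higher in replicate 2 (Alas1, Alad and Ppox). Alad was higher in replicate 2 and Uros lower on all 6 scales compared.

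**Figure D4:**
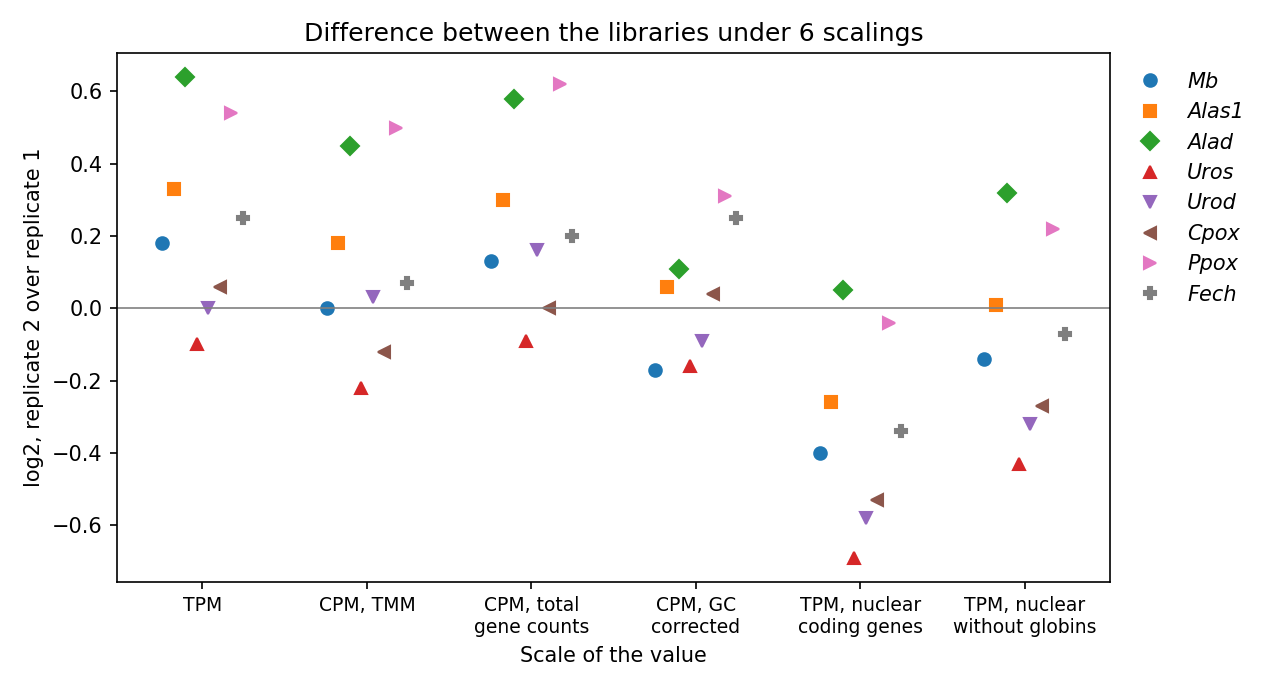
The log2 ratio of replicate 2 over replicate 1 for each of the 8 genes (points) on 6 scales of the same data. Alad lies above 0 and Uros below 0 on every scale shown, Mb lies between 0.18 and -0.40, and the whole group shifts down when the total is limited to nuclear coding genes.

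Red cell transcripts differed more between the libraries than any of the 8 genes did, by 9.16-fold to 14.8-fold for 4 globins against at most 1.42-fold. The globins Hba-a1, Hba-a2, Hbb-bs and Hbb-bt, which carry the heme of hemoglobin, summed to 7571 TPM in replicate 1 and 94635 TPM in replicate 2. This was 1.04 times the level of Mb in replicate 1 and 11.5 times in replicate 2. Alas2, the red cell isoenzyme of Alas1, measured 21.5 TPM in replicate 1 and 268 TPM in replicate 2, and it was called higher in replicate 2 (10.3-fold, 9.87 to 10.8). Alas1 was thus the higher of the isoenzymes in replicate 1, by 4.46-fold, and Alas2 in replicate 2, by 2.22-fold. Replicate 2 was the higher library for 8 of 9 tested erythroid markers by the call, and the list's summed TPM was 7593 and 94908. The erythroid factors Klf1 (7 and 4 counts) and Gata1 (10 and 25 counts) were near 0 in both.

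Red cell precursors use the enzymes of heme synthesis as well, and the part of red cell RNA in the levels of the 7 enzymes was not tested. Markers of other tissues also differed: brown fat markers summed to 72.9 and 170 TPM, led by Ucp1 (50.4 and 124 TPM). Of these 4 genes 1 was called in each direction, Ucp1 higher in replicate 2 and Elovl3 higher in replicate 1 (0.650 and 0.160 TPM, 4.44-fold). Skeletal muscle markers, of a tissue that also holds myoglobin, summed to 27.0 and 68.2 TPM, most of it Myl1 (22 and 59.0 TPM). Of 6 tested genes of this list 2 were called higher in replicate 2, beside 11.8% of all genes tested, and 0 in replicate 1. The called genes were Myl1 (2.41-fold) and Tnnt3 (1 and 34 counts). Not called were Atp2a1 (177 and 368 counts), Tnni2 (70 and 141), Mylpf (14 and 13) and Actn3 (29 and 29). The defining fast skeletal myosins Myh1, Myh2 and Myh4 were at or near 0, with at most 5 counts in a library. Liver markers, of a tissue rich in heme synthesis, summed to 14.7 and 10 TPM, but 5 of 6 were called higher in replicate 1, led by albumin (Alb, 9.27 and 0.310 TPM, 33.4-fold), with Serpina1a listed at 0 in replicate 2. The other, Cyp2e1, was called higher in replicate 2 (2.09 and 8.98 TPM, 3.80-fold).

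Around the 8 genes, a wider list of 53 genes of heme handling was followed, of which 52 had the 20 counts needed for the test. As called by the exact test with the 2-fold limit, 3 were higher in replicate 2 and 0 in replicate 1, which is 5.77% against 11.8% of all genes, with a median log2 ratio of 0.04. Without the fold limit 23 passed as higher in replicate 2 and 18 as higher in replicate 1. The 3 called genes were Alas2, Slc25a37 and Adgb. Slc25a37, mitoferrin-1, brings iron into the mitochondria of red cell precursors, and measured 5.60 and 20.6 TPM (2.86-fold, 2.71 to 3.03). Adgb, androglobin, had only 9 and 39 counts (3.63-fold, 1.73 to 8.52).

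The counts of the single groups that follow are small and stand beside the same 11.8% of all genes. Among the 15 genes of mitochondrial heme and iron transport and assembly, 1 was called. The highest were Slc25a39, a carrier of the inner membrane that brings in glutathione (107 and 174 TPM), Iscu, the scaffold of iron-sulfur clusters (74.1 and 89.2 TPM), Tmem14c, needed for porphyrin import (60.1 and 69.2 TPM), and Abcb8, a transporter of the inner membrane (46.5 and 68.4 TPM). None of the 3 genes that build heme a or attach heme to cytochrome c was called. Cox10 and Cox15, which convert heme to heme a, measured 20 and 28.0 TPM and 10.1 and 11.9 TPM, and Hccs, which attaches heme to cytochrome c, measured 16.0 and 13.0 TPM.

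Transcripts of proteins that carry the finished heme, mostly in the respiratory chain, spanned a wide range, and 0 of 9 were called against 11.8% of all genes (median log2 ratio -0.30). The mitochondrially encoded mt-Co1, the subunit of cytochrome oxidase that binds heme a, measured 115908 and 86276 TPM, and mt-Cytb, cytochrome b, measured 27220 and 22044 TPM. Their ratios of scaled CPM, replicate 2 over replicate 1, were 0.660 and 0.720, beside the mitochondrial shares of TPM given above. Of the nuclear genes, Cyc1 (cytochrome c1) measured 710 and 913 TPM and Sdhc (a membrane anchor of succinate dehydrogenase) measured 582 and 541 TPM. Others lay within the range of the enzymes: the cytochrome b5 genes Cyb5a (77.3 and 61.4 TPM) and Cyb5b (17.1 TPM in both), catalase (Cat, 55.1 and 64.6 TPM), and Cycs, somatic cytochrome c (24.8 and 15.5 TPM). In TPM, Mb lay above each nuclear gene of this list and below both mitochondrial ones.

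Genes of heme breakdown measured between 3.30 and 50.2 TPM. Hmox1, the inducible heme oxygenase, measured 3.30 and 6.11 TPM, and Hmox2, the constitutive form, measured 18.1 and 20.3 TPM. The biliverdin reductases Blvra and Blvrb measured 5.52 and 4.73 TPM and 14.4 and 24.5 TPM, and Por, which passes electrons to heme oxygenase, measured 26.8 and 50.2 TPM. None of the 5 genes was called, and their median log2 ratio was 0.55. Genes that make heme and genes that break it down thus overlapped in level.

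Of 6 genes of heme export and uptake 0 were called, led by Slc48a1, a heme transporter of endosomes and lysosomes (28.0 and 45.2 TPM), and Lrp1, a receptor for heme bound to hemopexin (25.8 and 44.2 TPM). The exporter Abcg2 measured 6.60 and 6.39 TPM and Slc46a1 measured 2.98 and 4.15 TPM. Of 10 genes that sense heme or act on Alas1 0 were called. Nr1d1 (REV-ERB alpha), a nuclear receptor whose ligand is heme, measured 66.4 and 110 TPM, Esrra, an orphan receptor of mitochondrial genes, measured 51.2 and 70.9 TPM, and Ppargc1a, a coactivator that induces Alas1 in the liver, measured 19 and 20.4 TPM. Nfe2l2, the factor that drives Hmox1 under oxidative stress, measured 18.3 and 19.3 TPM.

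Among globins outside red cells, Mb had no near equal. Cygb, cytoglobin, a globin of fibroblasts and related cells, measured 23.1 and 29.1 TPM, so that Mb was 315 and 283 times as high. Ngb, neuroglobin, had 8 and 5 counts, too few for the test.

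**Figure D5:**
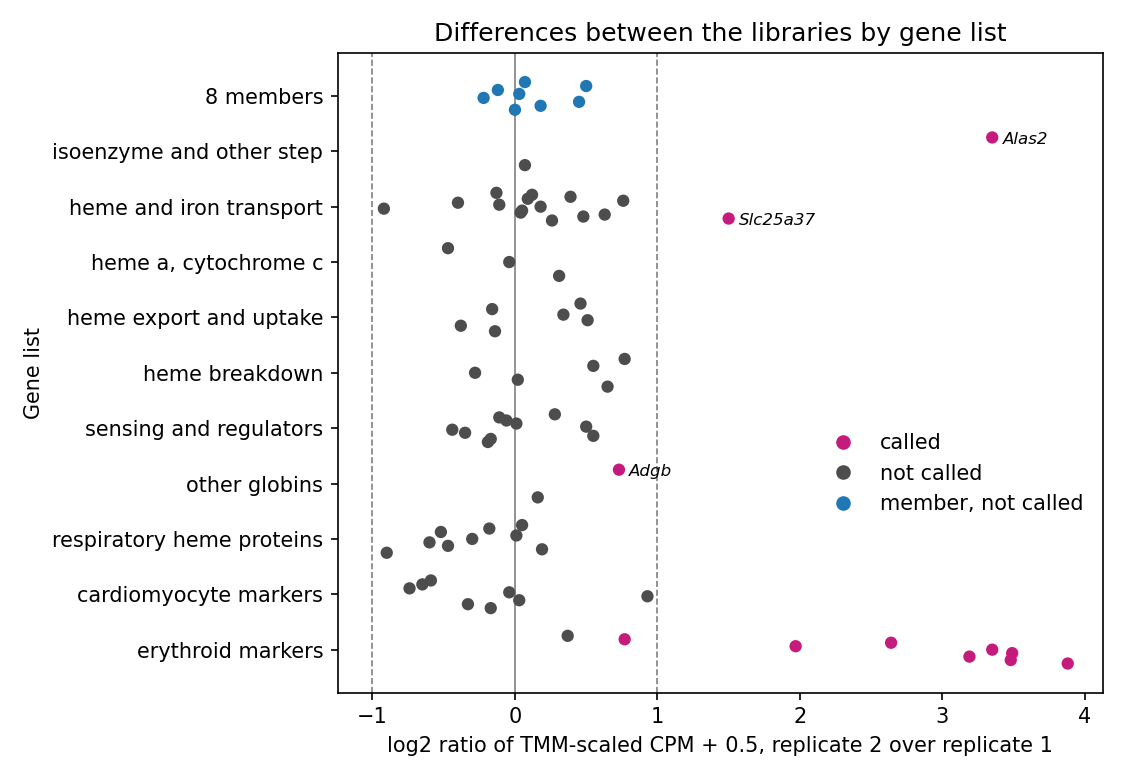
The log2 ratio of TMM-scaled CPM, with 0.5 CPM added to each value, of replicate 2 over replicate 1 for each tested gene (points) by list, with called genes in magenta, dashed lines at 2-fold and the 8 genes on the top row. The 8 lie between -0.22 and 0.50, the wider heme lists hold 3 called genes, and 8 of 9 erythroid markers are called higher in replicate 2; the addition of 0.5 CPM draws low genes such as Adgb inward.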

How the data were processed

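Poly(A) RNA of heart was measured in 2 libraries of 1 group. Per the deposited notes, the gene and transcript tables were made on mm10 with GENCODE M4. The sources used here name neither the aligner nor the quantification program. Expected counts, as deposited, are estimated fragments, rounded here for tests. The deposited TPM values are per effective length, the deposited FPKM values per length and depth, and both were scaled by the authors. The deposited percent of each gene held by a transcript is that of TPM. Deposited lists of contigs and junctions on mm9 were not used.

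Symbols came from GENCODE M21 on the same assembly, which matched 42462 of 43346 identifiers (98.0%). All 43 annotated transcripts of the 8 genes matched by identifier, 36 with the same length. TMM factors (0.957 and 1.04, edgeR 4.0.16, R 4.3.3) were computed on all genes, and genes reaching 20 counts in the 2 libraries together were tested (exact binomial test, 2 times the smaller tail). A count model with replicates cannot be fitted to 1 library against 1. The floor of 3 counts stands for 0.0555 and 0.0464 CPM. The test was checked on simulated data with counting error only. These had no variation between libraries, so the check does not cover such variation. Alternatives were other scalings (DESeq2 1.42.0 size factors, total counts, upper quartile), filters, a GC correction and an edgeR common dispersion of 0.0756. That dispersion was estimated from the same 2 libraries as 1 group. The members, gene lists and tests were chosen with earlier results of these data known. Named were all members, up to 4 genes of highest mean TPM in each list, every called gene of the heme lists and the 5 genes nearest Mb. The comparison of retained-intron shares over all genes was added after the shares of Ppox were seen, and Hmox1, Cyb5a, Cyb5b, Cat, Cycs and the marker genes were named after their values were seen. The values of some listed genes are not reported here.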

Additional observations from a re-analysis of the deposited data

How the results depend on the processing

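With 2 libraries, n limits every value, and the libraries differ in mitochondrial, red cell, airway and sex-linked RNA. Of the 28 pairs of genes, all 28 kept their order under FPKM, posterior means and in replicate 2 alone, 27 in replicate 1 alone and 26 by expected counts. Mb over the summed enzymes ranged from 4.72 to 4.85 (log2) when either library was left out, and was 3.79 by expected counts, which are not divided by length. No member was called under any scaling, filter or dispersion tried with the 2-fold limit. The ratios ran only from 0.858 to 1.42 in the main setting, so that limit largely fixed this count. Without the fold limit 5 members and 41 genes of the wider list passed, as the construction of that alternative allows. The sign of 3 ratios turned: with a GC correction Mb was -0.17, Urod -0.09 and Cpox 0.04, and Cpox was 0.00 by total gene counts and 0.06 by TPM, against -0.12; the cause was not tested. Over all genes, 1901 calls became 410 with edgeR's common dispersion, 1274 with at least 10 counts in each library and 10941 without the fold limit, and 1909 with DESeq2 size factors. The share of the leading transcript moved by fragments for Urod-201 (80.3% to 92.7%) and Alad-201 (96.6% to 95.2%). Which members passed without the fold limit depended on the scaling: Mb passed with DESeq2 size factors, upper quartile and total gene counts, but not with TMM. Restricting TPM to nuclear protein-coding genes moved all 8 levels. The ratio between the libraries cannot be recomputed without one of them. No paired analysis was possible because there is 1 group. Cpox, Ppox and Uros rest on 1128 to 1914 fragments per library, and the 95% interval of the ratio of Uros runs from 0.792 to 0.930.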
